A study of Mus musculus with 16 samples.

Results

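The interaction of line and stage asks whether 2 transgenic myoblast lines changed alike when they became myotubes. Each line was compared before and after differentiation, without doxycycline, and the log2 change in the GFP line was subtracted from that in the msx2 line. A negative interaction (called lower below) means that a gene rose less, or fell more, in the msx2 line, and a positive one (higher) the reverse. The rule took the 4 uninduced groups, which are 10 of the 16 libraries of the series, and every entry with a gene symbol. There were 19799 symbols, of which 16245 had enough reads to be tested.

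The cells were pmi28, a mouse myoblast line whose cells fuse into multinucleated myotubes. One line carried doxycycline-inducible msx2 and GFP transgenes and the other an inducible GFP transgene only, and all 10 libraries came from cells that were given no doxycycline. Myoblasts (2 libraries per line) were grown in 20% fetal bovine serum. Myotubes (3 libraries per line) were made by 3 days in 10% horse serum, caught on a nylon mesh that single cells pass, and kept with AraC, a drug that kills dividing cells. The labels do not state whether a line was a single clone, nor whether the libraries of a group were separate cultures. The spread behind each p-value may therefore be technical.

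When myoblasts leave the cell cycle, the transcription factor myogenin is switched on downstream of MyoD. Myomaker then lets the cells fuse, and the genes of the contractile apparatus, of calcium release and of the future synapse are turned on. Pax7, Myf5 and the Notch pathway are features of the undifferentiated state. Msx2 is a homeobox repressor known for holding cells back from differentiation.

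Total counts in the 10 libraries were 19784873 to 33092666. Of the stage markers, Myog, Des, Myh3, Acta1, Ckm, Tmem8c, Cdh15 and Ttn were higher in every myotube library than in any myoblast library and Myf5 was lower, while Myod1 overlapped between the stages of the msx2 line. Myh3, embryonic myosin heavy chain, was at 181 and 193 CPM (read counts divided by library size after TMM adjustment and rescaled) in msx2-line myoblasts and 58.5 and 64.4 CPM in GFP-line myoblasts, against 8912, 7743 and 8151 CPM and 10490.3, 9289 and 8737 CPM in the myotubes of the 2 lines. Pax7, the satellite cell factor, was at 84.4 and 78.6 CPM and 62 and 61.4 CPM in myoblasts and at 2.49 to 6.53 CPM in myotubes. In bulk RNA, more cells of a type and more RNA per cell cannot be told apart.

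Msx2 itself was not among the genes that differentiated differently. It was at 16.8 and 16.4 CPM in msx2-line myoblasts and 12.1, 15.9 and 13.2 CPM in msx2-line myotubes, against 1.59 and 1.28 CPM and 1.11, 1.03 and 1.18 CPM in the GFP line. The lines did not overlap in either stage, and the excess in the uninduced msx2 line was 3.53 on the log2 scale in myoblasts and 3.62 in myotubes. The interaction was 0.10 ± 0.23 (SE), adjusted p = 0.842. Reads of the transgene and of the endogenous gene cannot be told apart in these counts.

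Differentiation itself was nearly the same in the 2 lines. It moved 12964 genes in the msx2 line (79.8% of those tested, 40.8% up and 39% down) and 12616 in the GFP line (77.7%, 39.8% up and 37.9% down). The 2 sets of log2 changes, which share no library, had a Pearson r of 0.94 and a Spearman rho of 0.95 across genes, which are not independent replicates. The interaction passed an adjusted p of 0.05 for 1345 genes, or 8.28% of those tested, with 651 higher (4.01%) and 694 lower (4.27%). Of these 184 differed at least 2-fold (1.13%), and here the lower side was the larger, with 132 genes (0.813%) against 52 (0.32%). Upper-quartile scaling turned the split to 884 higher and 445 lower. Without 1 of the myoblast libraries the count of 1345 fell to 454 (msx2 line, replicate 1), 674 (GFP line, replicate 1) or 439 (GFP line, replicate 2).

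The difference lay in the myoblasts. Compared directly, the lines differed in 2652 genes in myoblasts (16.3%), 1476 higher (9.09%) and 1176 lower (7.24%) in the msx2 line, a split that upper-quartile scaling turned to 829 and 1411. In uninduced myotubes they differed in 10 genes (0.0616%), of which Msx2 was the 1 higher (0.00616%) and 9 were lower (0.0554%). DESeq2 found 154 in myotubes, and 1584 had an unadjusted p under 0.05. With the replicate number as a block, 173 passed. That number was taken to pair the myotube libraries, which the labels do not state. Of the 1345 genes with an interaction, 1194 (88.8%) differed between the lines in myoblasts only, 5 in myotubes only and 146 in neither stage by the test. Their median absolute line difference, in either direction, was 0.52 log2 units in myoblasts and 0.10 in myotubes, against 0.23 and 0.10 over all genes. Without 1 of the 3 myoblast libraries just named, 764, 1156 or 853 genes differed between the lines in myoblasts. For 1339 of the 1345 genes the libraries of the 2 lines did not overlap in myoblasts, beside 68.1% of all genes. In myotubes this held for 365, beside 13.2%. The interaction that called these genes uses the same values. Their counts by stage, medians and overlaps therefore describe the called genes and are no separate support.

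**Figure D1:**
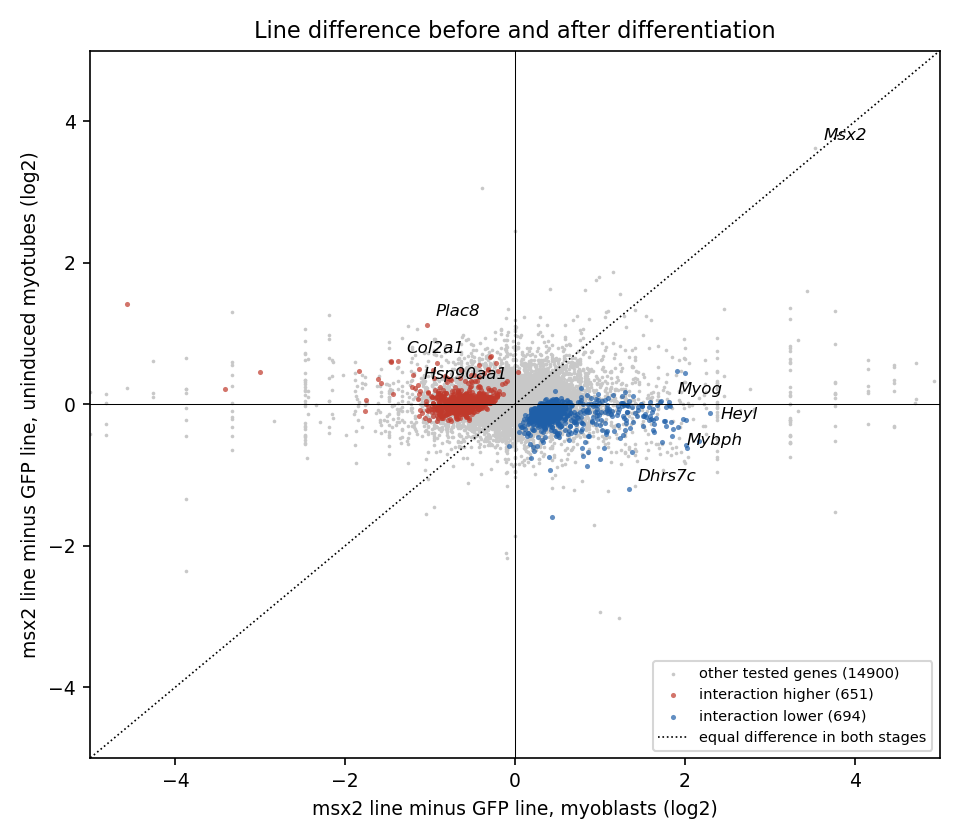
Each point is 1 of 16245 tested genes, placed by the log2 difference between the msx2 line and the GFP line in myoblasts (x axis) and in uninduced myotubes (y axis). Red points are the 651 genes with a higher interaction and blue points the 694 with a lower one, both spread along the x axis, while Msx2 lies on the dotted line of equal difference, and 2 genes beyond 5 log2 units are drawn at the edge.

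Base composition moved with this difference. Sorted by the GC content of the transcript into 10 bins of equal size (16139 of 16245 genes had a value), the median interaction went from 0.28 in the bin with the lowest GC to -0.25 in the bin with the highest. The myoblast line difference went from -0.30 to 0.28, and the myotube one only from -0.02 to 0.03. The 2 lowest bins held 492 of the 651 higher calls and 19 lower ones, and the 2 highest held 308 of the 694 lower calls and 6 higher ones. Within single libraries, the level of the highest bin minus that of the lowest was 0.36 and 0.21 log2 units in msx2-line myoblasts, -0.26 and -0.32 in GFP-line myoblasts and between -0.04 and 0.13 in myotubes. After each library was corrected for GC content, an alternative chosen after seeing the data, 527 genes passed (220 higher, 307 lower), 425 of them among the 1345. The count of calls under this correction is given beside each list described below, and the part of base composition in the results was not tested further.

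**Figure D2:**
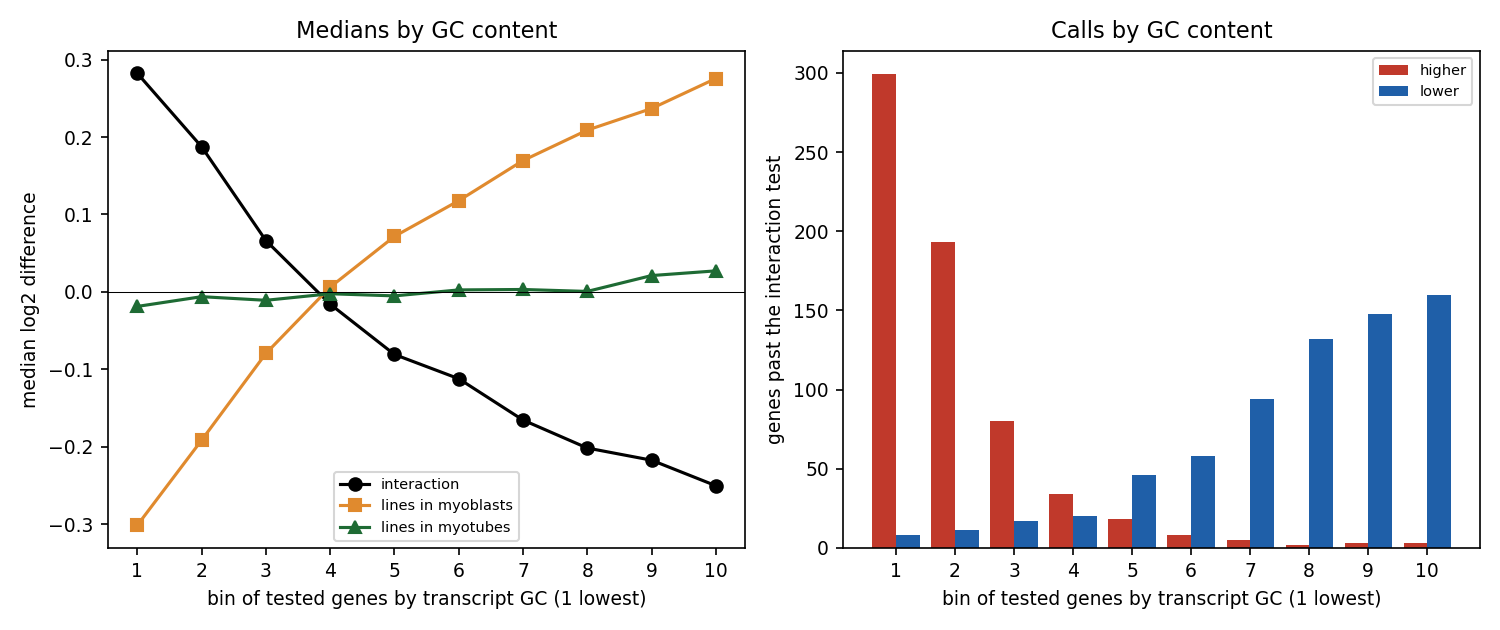
The left panel plots the median log2 value of the interaction (black circles), the line difference in myoblasts (orange squares) and in uninduced myotubes (green triangles) for 10 bins of the tested genes ordered by transcript GC content. The right panel counts the genes with a higher (red) and a lower (blue) interaction in each bin, from 299 higher and 8 lower in the first to 3 higher and 160 lower in the last.

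Of the 20 muscle transcription factors, 7 had a lower interaction (35%, beside 4.27% of all genes) and none a higher one, with a list median of -0.46 against -0.07 over all genes. Myog, myogenin, carried the largest of them. It was at 165 and 153 CPM in msx2-line myoblasts and 43.7 and 47 CPM in GFP-line myoblasts, and reached 812, 752 and 757 CPM and 711, 797 and 766 CPM in the myotubes. The lines were thus apart in myoblasts and overlapped in myotubes, so that the rise was 2.28 log2 units in the msx2 line and 4.06 in the GFP line (interaction -1.78 ± 0.12 (SE), adjusted p = 7.98e-07). Smyd1, a histone methyltransferase of striated muscle, had the same form, with 47.7 and 45.8 CPM against 20.2 and 20.4 CPM in myoblasts and 524, 421 and 474 CPM against 557, 474 and 545 CPM in myotubes (interaction -1.36 ± 0.18 (SE), adjusted p = 0.00037).

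The other 5 differed by less. Myod1, the factor upstream of myogenin, was at 279.7 and 245 CPM and 177 and 183 CPM in the myoblasts of the msx2 and GFP lines and at 252 to 290 CPM in all 6 myotube libraries (interaction -0.45 ± 0.11 (SE), adjusted p = 0.0193). It rose in the GFP line by 0.54 log2 units and did not pass in the msx2 line (0.09). Nfix, the factor of the fetal muscle programme, fell in both lines and fell further in the msx2 line (-0.67). Tead4 and Mef2d rose in both and rose less in the msx2 line (-0.66 and -0.60). With the GC correction 3 of the 7 passed, Myog, Smyd1 and Nfix, and 3 also passed without msx2-line myoblast replicate 1, or without either GFP-line myoblast library.

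Not every factor that rises in myotubes started higher in the msx2 line. Mef2c was at 6.91 and 9.05 CPM in msx2-line and 8.72 and 7.62 CPM in GFP-line myoblasts, which overlapped, and at 1280.3, 1076 and 1132 CPM against 1872, 1485 and 1406 CPM in myotubes, where the GFP line was the higher (interaction -0.42 ± 0.26 (SE), adjusted p = 0.348). Mef2a, at 40.7 and 41 CPM and 42.8 and 45 CPM in myoblasts, had an interaction of 0.24 ± 0.14 (SE) (adjusted p = 0.316). Myf5, the early determination factor, fell from 97.7 and 86.7 CPM and from 73.7 and 79.3 CPM to 5.26 to 8.04 CPM in the 6 myotube libraries (interaction -0.46 ± 0.21 (SE), adjusted p = 0.186). Eya1, Eya2, Eya4, Six2, Six4, Six5, Mef2b, Myf6, Hopx and Prox1 did not pass either, with interactions from -0.58 to 0.47.

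**Figure D3:**
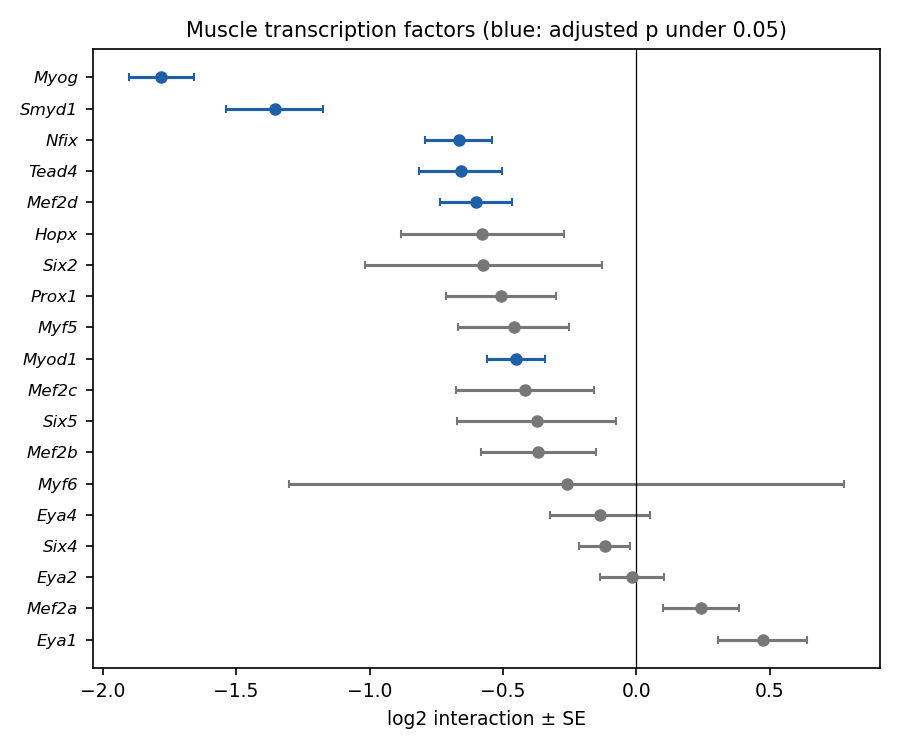
Each point is the log2 interaction of line and stage for 1 of 19 of the 20 muscle transcription factors, with a bar of 1 standard error on each side. The 6 blue points passed an adjusted p of 0.05, and all of these are below 0, with Myog at -1.78.

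Sarcomere genes formed the largest block on the lower side. Of 65 tested members 31 had a lower interaction and 1 a higher one (49.2% in all, beside 8.28% of all genes), with a list median of -1.14. In myoblasts 38 of the 65 were higher in the msx2 line, beside 9.09% of all genes, none was lower, and the median member stood 2.09 times as high as in the GFP line. In myotubes no member differed by the test. The summed level of the list was 6902 to 7069 CPM in msx2-line and 4796 to 4944 CPM in GFP-line myoblasts, and 71639.5 to 84537 CPM against 78162 to 89296 CPM in myotubes. With the GC correction 26 members were lower, and between 23 and 33 were lower when single libraries were left out.

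The troponins illustrate the pattern. Tnni1, slow troponin I, was at 141 and 126 CPM in msx2-line and 45 and 41.8 CPM in GFP-line myoblasts, and at 2451, 2176 and 2224 CPM and 2426, 2439 and 2333 CPM in the myotubes (interaction -1.69 ± 0.11 (SE), adjusted p = 7.3e-07). The msx2-line myoblasts were 3.08-fold higher, and the myotubes of the lines overlapped. Tnnc1, slow troponin C, went from 96.7 and 91.9 CPM to 2168, 1997 and 1872 CPM in the msx2 line and from 31.4 and 31.6 CPM to 2189, 2087 and 1939.6 CPM in the GFP line (interaction -1.62 ± 0.11 (SE)). Tnni2, fast troponin I, started at 13.3 and 13.5 CPM against 3.55 and 3.97 CPM and ended at 395, 368 and 296 CPM against 494, 439 and 322 CPM (interaction -2.08 ± 0.29 (SE)). All 3 passed with the GC correction.

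Mylpf, the fast regulatory myosin light chain, was at 248 and 231 CPM and 74 and 71.8 CPM in the myoblasts of the msx2 and GFP lines and at 4569, 4078 and 3781 CPM and 4297, 4053 and 3653 CPM in their myotubes (interaction -1.66 ± 0.12 (SE), adjusted p = 1e-06). Mybph, myosin binding protein H, had the largest interaction among the members that passed. It was at 42.6 and 40.4 CPM in msx2-line and 11.5 and 10.4 CPM in GFP-line myoblasts, and at 811, 776 and 785 CPM against 969.5, 1099.6 and 881 CPM in myotubes, where the GFP line was the higher in every library (interaction -2.24 ± 0.18 (SE), adjusted p = 4.76e-06). Ttn, the gene of the giant protein titin, did not follow. Its myoblast levels of 58.3 and 93.5 CPM and 71.4 and 71.6 CPM overlapped, and its interaction was -0.43 ± 0.23 (SE) (adjusted p = 0.269). The 1 member with a higher interaction was Ankrd1, a stretch-responsive titin-binding protein, which went from 324 and 340.4 CPM to 2074, 1625 and 1557 CPM in the msx2 line and from 414 and 441 CPM to 1342, 1125 and 1408 CPM in the GFP line (interaction 0.80 ± 0.20 (SE), adjusted p = 0.0213).

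**Figure D4:**
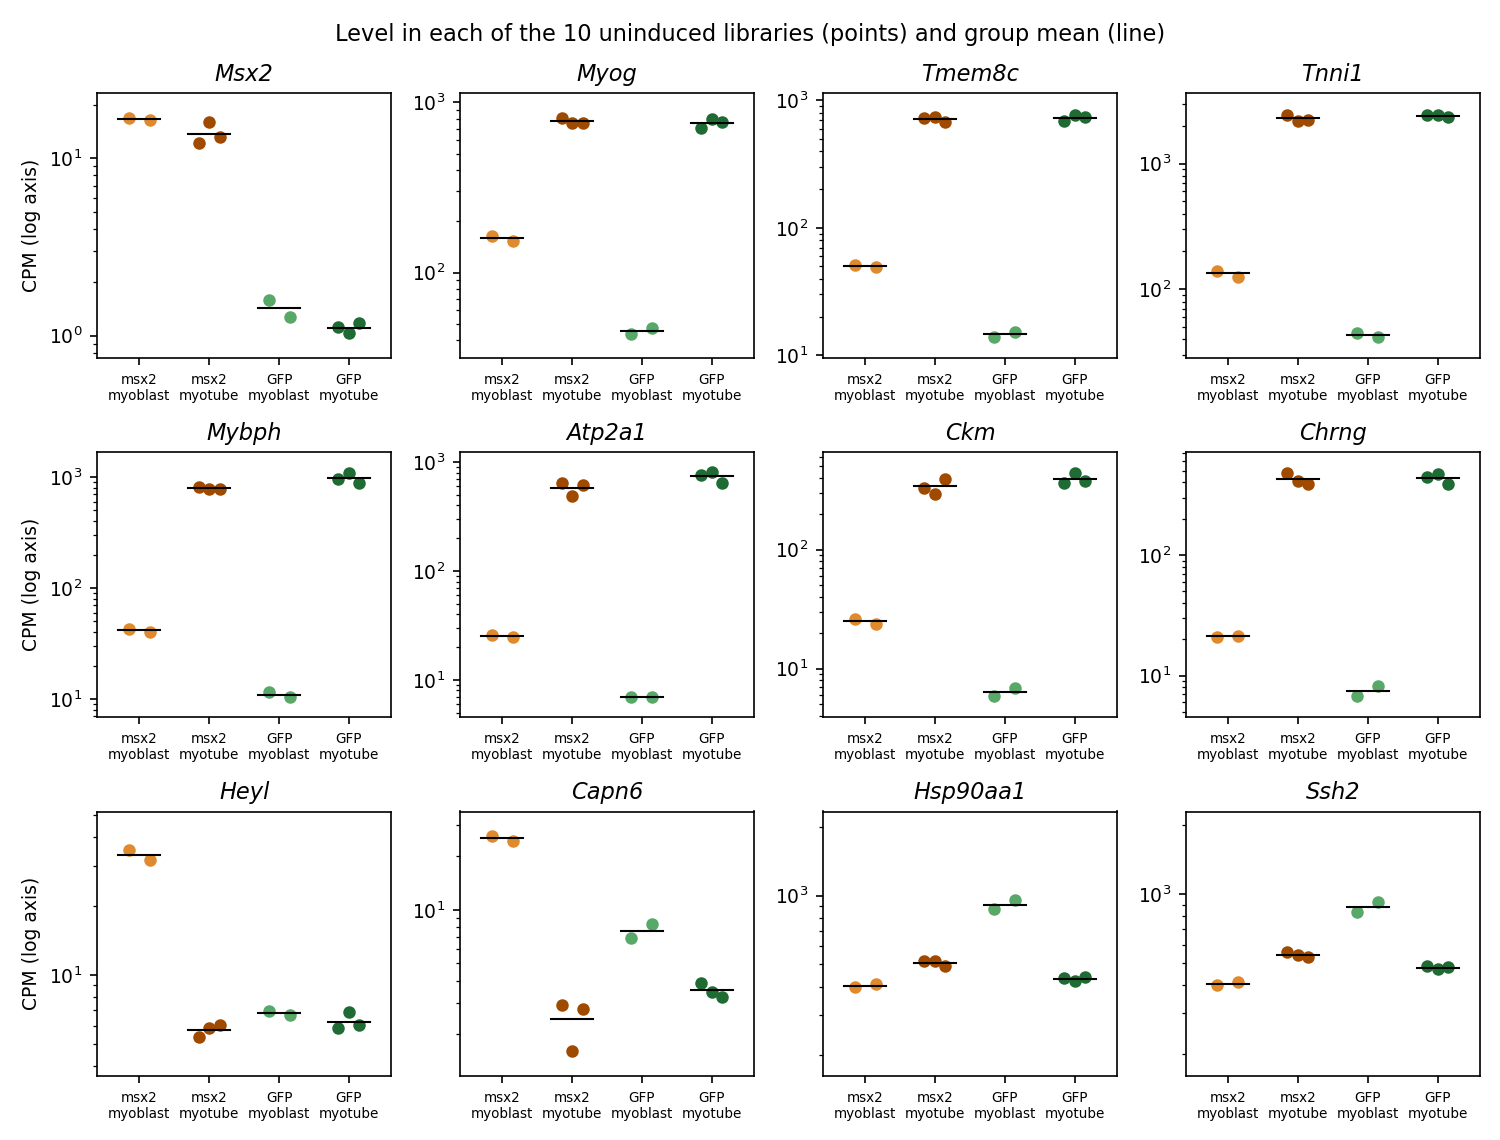
Each panel shows 1 gene, with the CPM of each library as a point on a log axis (different range in each panel) and the group mean as a line, for myoblasts (2 libraries) and uninduced myotubes (3 libraries) of the msx2 line (orange, brown) and the GFP line (light and dark green). Msx2 is apart in both stages, the 7 muscle genes from Myog to Chrng are apart in myoblasts and near each other in myotubes, Heyl and Capn6 are high in msx2-line myoblasts, and Hsp90aa1 and Ssh2 are high in GFP-line myoblasts.

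Of 36 genes of calcium handling and excitation 15 had a lower interaction (41.7%, beside 4.27% of all genes) and none a higher one (median -0.68). In msx2-line myoblasts 16 were higher, beside 9.09% of all genes. With the GC correction 11 were lower, and 10 without msx2-line myoblast replicate 1 or without GFP-line myoblast replicate 2. Atp2a1, the calcium pump of fast fibres, was at 25.8 and 24.8 CPM and 7 and 6.93 CPM in the myoblasts of the msx2 and GFP lines and at 649, 485 and 612 CPM and 767, 805 and 646 CPM in their myotubes (interaction -2.20 ± 0.22 (SE), adjusted p = 5.41e-05). Casq2, the calsequestrin that stores calcium in the sarcoplasmic reticulum, rose from 31.4 and 32.7 CPM to 1229, 1201 and 1140.0 CPM and from 12.6 and 11.4 CPM to 1371, 1249 and 1255 CPM (interaction -1.54 ± 0.10 (SE)). Both genes were apart in myoblasts. In myotubes the lines overlapped for Atp2a1, and Casq2 was slightly higher in the GFP line. Cav3, caveolin of the muscle surface membrane, had an interaction of -1.91 ± 0.16 (SE) and Srl, sarcalumenin, one of -1.70 ± 0.16 (SE).

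At the neuromuscular junction 7 of 18 genes had a lower interaction (38.9%, beside 4.27% of all genes) and none a higher one (median -0.43). With the GC correction 6 were lower. Without msx2-line myoblast replicate 1, or either GFP-line myoblast library, 5 were lower. Chrng, the fetal subunit of the acetylcholine receptor, was at 21.1 and 21.2 CPM in msx2-line and 6.72 and 8.26 CPM in GFP-line myoblasts and at 478, 409 and 389 CPM and 444, 469 and 390.3 CPM in myotubes (interaction -1.53 ± 0.16 (SE), adjusted p = 6.35e-05). Erbb3, a neuregulin receptor, was at 9.45 and 8.35 CPM and 3.03 and 3.92 CPM in myoblasts and at 127, 101 and 113 CPM and 149, 144 and 135 CPM in myotubes (interaction -1.68 ± 0.19 (SE)). The Chrng ranges of the lines overlapped in myotubes, and for Erbb3 the GFP line was the higher there in every library. Dok7, an activator of the receptor kinase MuSK, had an interaction of -0.91 ± 0.14 (SE) (adjusted p = 0.00117).

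Of 32 genes of myoblast fusion and adhesion, 5 had a lower interaction (15.6%, beside 4.27% of all genes, median -0.11). The GC correction left 3, as did leaving out msx2-line myoblast replicate 2, and 2 were lower without any 1 of the other myoblast libraries. Tmem8c, the gene of myomaker, was at 51 and 49.3 CPM in msx2-line and 13.9 and 15.2 CPM in GFP-line myoblasts, and at 728, 733 and 676 CPM and 687, 771 and 736 CPM in the myotubes, which overlapped (interaction -1.82 ± 0.12 (SE), adjusted p = 7.3e-07). Cdh15, M-cadherin, was at 144 and 134 CPM and 71.1 and 82.9 CPM in myoblasts and had an interaction of -0.96 ± 0.17 (SE) (adjusted p = 0.00291).

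In muscle energy metabolism 6 of 40 genes were lower and 1 higher (17.5% in all, beside 8.28% of all genes, median -0.32). The count of lower ones was 3 with the GC correction, and without any 1 of the 4 myoblast libraries it was 3 or 4, with none higher in either case. Ckm, muscle creatine kinase, was at 26.2 and 23.9 CPM in msx2-line and 5.83 and 6.89 CPM in GFP-line myoblasts and at 329.6, 296 and 393 CPM and 366, 439.5 and 376 CPM in myotubes (interaction -2.19 ± 0.27 (SE), adjusted p = 0.000309). Mb, the oxygen carrier myoglobin, had an interaction of -2.07 ± 0.28 (SE) (adjusted p = 0.000641). Of 30 genes of the dystrophin complex and costamere 6 were lower and 1 higher (23.3% in all, median -0.18), 5 and 1 with the GC correction, and 3 and 1 without msx2-line myoblast replicate 1 or GFP-line myoblast replicate 1. Itgb1bp2, melusin, a partner of integrin beta 1, had an interaction of -2.02 ± 0.33 (SE).

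The sequences upstream of some of these genes are shown because many members moved together. The hexamer CAGCTG, a form of the E-box to which MyoD and myogenin are known to bind, reads the same on both strands. It was searched in the 250 bases before each start site (RefSeq, GRCm38.p6, read in the direction of the gene). Of the 77 genes with a lower interaction in the 7 muscle lists above, 49 had an entry, and 25 of these (51%) held it. Of the 163 other tested genes of those lists, 114 had an entry and 29 (25.4%) held it. Of all genes with a lower interaction that had an entry, the muscle ones among them, 23.9% held it. Of those with a higher interaction 12.9% did. Over all tested genes 15.3% held it, and 13% of all windows in the table did. A gene with several start sites counted if any of its windows held it, so the share of windows is another measure. The number of windows per gene was not compared. A match is a string of letters, not a site, and the GC content of the windows was not compared. Sarcomere transcripts had a median GC content of 53.3%, against 49.6% over all genes. Capitals mark the hexamer in the 4 windows below that hold it, chosen after their values were seen, and the window of Myog holds none. Positions count back from the start site.
Mybph, chr1:134193198-134193447, plus strand, CAGCTG from -79: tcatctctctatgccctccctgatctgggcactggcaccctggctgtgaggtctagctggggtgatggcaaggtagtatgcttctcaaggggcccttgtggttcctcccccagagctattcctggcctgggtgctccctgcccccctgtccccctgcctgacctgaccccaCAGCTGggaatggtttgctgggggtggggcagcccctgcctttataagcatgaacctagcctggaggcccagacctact
Mylpf, chr7:127211358-127211607, plus strand, CAGCTG from -51: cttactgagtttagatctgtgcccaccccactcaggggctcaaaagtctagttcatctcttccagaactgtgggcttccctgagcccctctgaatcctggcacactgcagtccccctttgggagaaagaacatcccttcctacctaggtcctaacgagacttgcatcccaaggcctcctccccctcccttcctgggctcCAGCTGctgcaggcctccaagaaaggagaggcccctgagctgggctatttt
Atp2a1, chr7:126463074-126463323, minus strand, CAGCTG from -55: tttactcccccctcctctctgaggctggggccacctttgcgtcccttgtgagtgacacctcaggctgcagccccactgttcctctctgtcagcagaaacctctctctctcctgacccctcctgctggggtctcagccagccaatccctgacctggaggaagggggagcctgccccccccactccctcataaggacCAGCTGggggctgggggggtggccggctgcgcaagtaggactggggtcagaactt
Chrng, chr1:87205561-87205810, plus strand, CAGCTG from -155 and -132: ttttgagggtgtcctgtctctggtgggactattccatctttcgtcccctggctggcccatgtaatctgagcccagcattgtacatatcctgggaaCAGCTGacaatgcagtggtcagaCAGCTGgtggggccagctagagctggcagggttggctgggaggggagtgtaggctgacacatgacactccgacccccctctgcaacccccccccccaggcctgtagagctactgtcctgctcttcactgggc
Myog, chr1:134289754-134290003, plus strand: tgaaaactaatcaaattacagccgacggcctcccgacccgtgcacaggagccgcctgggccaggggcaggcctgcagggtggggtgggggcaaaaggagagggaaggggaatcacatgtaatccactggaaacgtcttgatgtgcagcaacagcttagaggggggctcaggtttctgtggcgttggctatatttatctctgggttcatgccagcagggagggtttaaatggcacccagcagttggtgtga

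Among the other large interactions on this side, Chi3l1, Mfap4, Syt8, Bex1 and F2 rose in both lines from 0.0912 to 1.87 CPM in myoblasts, with interactions from -2.68 to -2.05. Chi3l1, Syt8 and F2 lost their calls with the GC correction.

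Some other lower interactions came from genes that fell in the msx2 line. Heyl, a Notch target and repressor, was at 35.1 and 31.9 CPM in msx2-line myoblasts and at 6.95 and 6.7 CPM in GFP-line myoblasts, with 5.34, 5.87 and 6.01 CPM and 5.87, 6.86 and 6.03 CPM in the myotubes. Only the msx2-line myoblasts stood apart, and the gene fell by 2.54 log2 units there and did not pass in the GFP line (-0.12). Its interaction was -2.41 ± 0.13 (SE) (adjusted p = 1.07e-07), and -2.24 with the GC correction. Of 28 Notch pathway genes 8 were lower (28.6%, beside 4.27% of all genes, median -0.42). In msx2-line myoblasts 10 were higher, beside 9.09% of all genes. Members of this list moved both ways with differentiation. In the msx2 line 9 rose and 14 fell, and in the GFP line 11 rose and 10 fell. The summed level of the list was 1224 to 1277 CPM in msx2-line and 878 to 886 CPM in GFP-line myoblasts. In myotubes it was higher, at 1479 to 1641 CPM and 1483 to 1543 CPM. Hes6, a muscle-expressed Hes factor, was at 137 and 133 CPM and 76.7 and 73.7 CPM in the myoblasts of the 2 lines (interaction -0.71 ± 0.13 (SE)), and Numbl, a Numb-like inhibitor of Notch, had an interaction of -0.67 ± 0.13 (SE). Most of these calls were lost with the GC correction, which left Heyl and Numbl, and 3 were lower without msx2-line myoblast replicate 1 or GFP-line myoblast replicate 2 and 5 without GFP-line myoblast replicate 1.

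Capn6, a calpain that lacks protease activity, was at 25.9 and 24.5 CPM in msx2-line and 6.9 and 8.3 CPM in GFP-line myoblasts and at 2.89, 1.6 and 2.77 CPM and 3.9, 3.43 and 3.24 CPM in the myotubes (interaction -2.27 ± 0.29 (SE), adjusted p = 0.000292). It fell in both lines, from a higher start and to a lower end in the msx2 line. Fgfr4, a fibroblast growth factor receptor of myoblasts, fell from 29.1 and 27.6 CPM to 9.43, 8.18 and 10.0 CPM in the msx2 line, and was at 13.3 and 13.5 CPM and 11.6, 10.8 and 13.5 CPM in the GFP line (interaction -1.46 ± 0.18 (SE), adjusted p = 0.000192). Gas1, a growth arrest protein, was at 83.6 and 84.7 CPM and 46.8 and 50.6 CPM in myoblasts and at 9.78 to 13.8 CPM in myotubes (interaction -1.06 ± 0.12 (SE), adjusted p = 0.000134). Its lines did not overlap in either stage, with the order turned round in myotubes.

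Among 31 progenitor and repressor factors 6 were lower (19.4%, beside 4.27% of all genes, median -0.09), of which 1, Bhlhe41, passed with the GC correction. The count was also 1 without msx2-line myoblast replicate 1 or either GFP-line myoblast library, and 2 or 3 without msx2-line myotube replicate 3 or GFP-line myotube replicate 1 or 2. It was at 14.5 and 12 CPM in msx2-line and 6.25 and 7.66 CPM in GFP-line myoblasts (interaction -0.91 ± 0.17 (SE)). The interaction of Pax7 was -1.15 ± 0.28 (SE), with adjusted p = 0.0226, or adjusted p = 0.0906 with the GC correction. Between the lines in myoblasts, Pax7 (1.32-fold higher in the msx2 line) and Myf5 (1.21-fold) did not pass the test.

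Growth genes of the imprinted cluster around Igf2 were also higher at the start in the msx2 line. H19, a long non-coding RNA, was at 6660.0 and 6665 CPM in msx2-line and 3074 and 3039.8 CPM in GFP-line myoblasts and at 10262, 9822 and 8884 CPM and 11906, 9849.5 and 9950.4 CPM in myotubes (interaction -1.25 ± 0.14 (SE), adjusted p = 8.46e-05). Igf2, the insulin-like growth factor made by differentiating myoblasts, was at 528 and 513 CPM and 214 and 222 CPM in myoblasts and at 2468, 2318 and 2704 CPM and 2473, 2082 and 2813 CPM in myotubes (interaction -1.23 ± 0.21 (SE), adjusted p = 0.00226). Both were apart in myoblasts only. Mest, another imprinted gene, fell in both lines from 719 and 725 CPM and 466 and 492 CPM to 25.4 to 29.8 CPM (interaction -0.62 ± 0.10 (SE)). In total 5 of 33 genes of this list were lower (15.2%, beside 4.27% of all genes, median -0.27), and 4 with the GC correction.

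In the BMP and TGF-beta pathway 4 of 52 genes were lower and 4 higher, or 15.4% in all, beside 8.28% of all genes. The counts were 3 lower and 1 higher with the GC correction, 1 and 1 without msx2-line myoblast replicate 1, 1 and 2 without GFP-line myoblast replicate 1 and 1 and 0 without GFP-line myoblast replicate 2, and 5 and 4 were called in all without msx2-line myoblast replicate 2 or myotube replicate 3. On the lower side, Tgfb3, a ligand, was at 50.6 and 49.9 CPM in msx2-line and 31.2 and 31 CPM in GFP-line myoblasts (interaction -0.94 ± 0.12 (SE), adjusted p = 0.000191), and Inha, the inhibin alpha subunit, had an interaction of -1.54 ± 0.33 (SE). On the higher side, the receptor Bmpr1a (0.54) and the activin subunit Inhba (0.72) were called higher and lost their calls with the GC correction. Of 31 genes of cholesterol synthesis and uptake 6 had a lower interaction (19.4%, beside 4.27% of all genes, median -0.27). In msx2-line myoblasts 12 were higher, beside 9.09% of all genes. Srebf2, the master regulator of the pathway, was at 251 and 238 CPM and 182 and 173 CPM in myoblasts and at 103 to 121 CPM in myotubes (interaction -0.57 ± 0.11 (SE), adjusted p = 0.00615). The 6 calls became 4 with the GC correction, 0 without GFP-line myoblast replicate 2, and 2 or 3 without any 1 of the other myoblast libraries or GFP-line myotube replicate 2.

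The higher side held fewer large effects, and its main genes were high in GFP-line myoblasts. Hsp90aa1, the inducible cytosolic chaperone, was at 875 and 953 CPM in GFP-line and 398 and 409 CPM in msx2-line myoblasts, and at 520.1, 516 and 494 CPM and 435, 424 and 441 CPM in msx2-line and GFP-line myotubes (interaction 1.41 ± 0.11 (SE), adjusted p = 4.27e-06). It fell in the GFP line and rose slightly in the msx2 line, and the lines did not overlap in either stage. Ssh2, a phosphatase of the actin regulator cofilin, had the same form, with 836 and 919 CPM against 399 and 411 CPM in myoblasts and 483, 469.6 and 477 CPM against 557, 539.6 and 532 CPM in myotubes (interaction 1.30 ± 0.11 (SE), adjusted p = 4.49e-06). Both calls passed in all 21 alternatives. Hsp90b1, the chaperone of the endoplasmic reticulum, was at 519 and 535 CPM and 333 and 342 CPM in GFP-line and msx2-line myoblasts (interaction 0.73 ± 0.09 (SE), adjusted p = 0.000292). Hsp90 genes have close relatives in the genome, and how the counting split shared reads is not given.

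Cys1, a cilium protein, was at 18.3 and 21.8 CPM in GFP-line and 8.33 and 9 CPM in msx2-line myoblasts and at 10.7, 12.1 and 11.8 CPM and 9.16, 10.4 and 9.62 CPM in msx2-line and GFP-line myotubes (interaction 1.46 ± 0.16 (SE), adjusted p = 8.32e-05). Plac8 had the largest of the named higher interactions (2.16 ± 0.39 (SE), adjusted p = 0.00299). It was at 2.24 and 2.42 CPM in GFP-line and 0.98 and 1.27 CPM in msx2-line myoblasts and at 0.354, 0.369 and 0.353 CPM and 0.499, 0.995 and 0.81 CPM in their myotubes, so the order of the lines turned round. Col2a1, a cartilage collagen, fell from 32.1 and 30.3 CPM to 0.202, 1.44 and 0.706 CPM in the GFP line and from 13.2 and 10.8 CPM to 0.948, 1.07 and 1.65 CPM in the msx2 line (interaction 1.99 ± 0.52 (SE), adjusted p = 0.0311). This call was lost with only the 10 uninduced libraries and without myotube replicate 3 of either line. Over all alternatives the Col2a1 interaction ranged from 1.64 to 2.67. Other named genes of this side were low, with Rasgrp3, Liph, Sbsn, Serpinb9b, Adam18, Vmn2r55, Ifi205 and Coch at 14.6 CPM or less in every myoblast library.

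Of 35 p53 targets 4 were higher and 2 lower (17.1% in all, beside 8.28% of all genes). After the GC correction 2 were higher and 3 lower, and without GFP-line myoblast replicate 2 2 and 1. Polk, a translesion DNA polymerase, was at 13 and 11.8 CPM in msx2-line and 24.2 and 26.3 CPM in GFP-line myoblasts and at 25.6 to 32.4 CPM in myotubes (interaction 1.00 ± 0.15 (SE), adjusted p = 0.00105). Ccng1, cyclin G1, was at 124 and 126 CPM and 229 and 241 CPM in myoblasts (interaction 1.10 ± 0.22 (SE), adjusted p = 0.0078), with adjusted p = 0.0657 after the GC correction. Against these, Cdkn1a, the p21 inhibitor that accompanies cell cycle exit, was at 131 and 132 CPM in msx2-line and 89.2 and 89.7 CPM in GFP-line myoblasts and at 1519 to 1639 CPM in myotubes (interaction -0.51 ± 0.09 (SE), adjusted p = 0.00307). So the 2 directions were both present within the list.

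Opposite movements were rare among all tested genes (0.591%) and made up 6.84% of the 1345 genes with an interaction. Of the 1345 genes 511 rose in both lines (38%, beside 35.1% of all genes) and 351 fell in both (26.1%, beside 34.3%). A further 136 rose in the msx2 line only (10.1%, beside 5.3%) and 79 rose in the GFP line only (5.87%, beside 4.45%). In the msx2 line only 88 fell (6.54%, beside 4.52%), and 88 fell in the GFP line only (6.54%, beside 3.23%). The remaining 92 passed in opposite directions, 65 with a higher and 27 with a lower interaction, out of 96 such genes among all tested. Hsp90aa1, Ssh2 and Cys1 rose in the msx2 line and fell in the GFP line. Lsp1, an actin-binding protein, fell from 134 and 127 CPM to 77.1, 102 and 94.8 CPM in the msx2 line and was at 78.4 and 79.5 CPM and 92.2, 116 and 93.7 CPM in the GFP line, where it passed as a rise of 0.35 log2 units (interaction -0.86 ± 0.17 (SE), adjusted p = 0.00484). Synpo, an actin-associated protein, passed in the GFP line only, rising from 7.65 and 7.25 CPM to 20.0, 16.6 and 16.3 CPM, while the msx2 line stayed between 15.7 and 19.4 CPM (interaction -1.36 ± 0.15 (SE), adjusted p = 0.000103).

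By the test, 5 of the 1345 genes differed between the lines in myotubes and not in myoblasts, all lower in msx2-line myotubes. Dhrs7c, a dehydrogenase of the sarcoplasmic reticulum, was at 19.7, 16.4 and 18.8 CPM in msx2-line and 47.3, 45.2 and 33.4 CPM in GFP-line myotubes. In myoblasts it was near the floor, at 1.16 and 0.74 CPM against 0.233 and 0.502 CPM (5 to 26 reads). Its line difference was 1.34 log2 units in myoblasts and -1.20 in myotubes (interaction -2.54 ± 0.61 (SE), adjusted p = 0.0197). Slc43a2, an amino acid transporter, was at 22 and 21.9 CPM and 17.5 and 19.1 CPM in the myoblasts of the msx2 and GFP lines and at 39.2, 38.5 and 47 CPM and 69, 61.4 and 58.5 CPM in their myotubes (interaction -0.86 ± 0.15 (SE), adjusted p = 0.00232). Cacna1b, a neuronal calcium channel subunit, was at 1.29 and 1.4 CPM and 0.84 and 1.19 CPM in myoblasts and at 5.59, 6.19 and 5.64 CPM and 10.5, 12.9 and 9.8 CPM in myotubes (interaction -1.34 ± 0.33 (SE)). It lost its call with the GC correction (adjusted p = 0.0685). Over all alternatives the interaction ranged from -3.19 to -2.10 for Dhrs7c and from -1.61 to -1.11 for Cacna1b. All 3 were apart in both stages, with the order of the lines turned round in myotubes. The other 2, named after their values were seen, were Slc16a6 (-0.52) and Dnajc27 (-0.44).

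Among 28 cell cycle inhibitors and cyclins 4 were lower, Cdkn1a and Gas1 among them, and 1 higher, Ccng1, or 17.9% in all, beside 8.28% of all genes. The GC correction gave 3 lower, and without msx2-line myoblast replicate 1 or either GFP-line myoblast library 2 were. Of 55 S phase genes 1 was higher, Pola1 (0.74 ± 0.12 (SE)), and none lower, also with the GC correction. Of 57 genes of G2/M and mitosis 1 was higher, Kif18a, and 2 lower, Spc24 and Ncapd2, and none passed with the GC correction. The summed level of the mitosis list was 6718 to 6925 CPM in msx2-line and 7533 to 7605 CPM in GFP-line myoblasts, where 10 of its 57 members were lower in the msx2 line, beside 7.24% of all genes, and none higher. Only 2 were lower there with the GC correction. The S phase list summed to 5180 to 5400 CPM and 4799 to 4899 CPM. Of 71 ribosomal protein genes 3 were lower, and of 71 respiratory chain genes 4, with medians of -0.19 and -0.22 (3 and 3 with the GC correction). The share called in the S phase, mitosis, ribosomal and respiratory lists was 1.82% to 5.63%, beside 8.28% of all genes. Leaving out single libraries gave 0 to 11 ribosomal and 0 to 12 respiratory chain genes, with the highest counts without msx2-line myotube replicate 2, and 1 to 6 mitosis genes, with the highest without GFP-line myotube replicate 1.

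Markers of other cell types were counted as well, beside 8.28% of all genes called. Of 16 fibroblast markers 1 was lower (6.25%, Dpep1), and 1 with the GC correction. Of 14 smooth muscle markers 2 were lower (14.3%), Des and Smtn, of which Des is also a sarcomere gene, and 1 with the GC correction. Of 11 neural markers 2 were higher (18.2%), among them Snap25, at 1.12 CPM or less in every myoblast library, and none with the GC correction or without any 1 of msx2-line myoblast replicate 1, msx2-line myotube replicate 3, either GFP-line myoblast library or GFP-line myotube replicate 2. Col2a1 was the 1 of 13 chondrocyte markers called (7.69%), with 1 higher and 1 lower under the GC correction. None of 7 adipocyte, 10 endothelial and 9 leukocyte markers passed, with or without the GC correction. The fibroblast list summed to 9403 to 9519 CPM in msx2-line and 8528 to 8737 CPM in GFP-line myoblasts, mostly Vim. In myotubes the list summed to 2632 to 3265 CPM in the msx2 line and 2136 to 2483 CPM in the GFP line. These ranges did not overlap, though no tested member differed between the lines there by the test. Its members Tcf21 and Lum, too low to be tested, had 0 and 8 reads over the 10 uninduced libraries. The smooth muscle list summed to 6047 to 6539 CPM against 4019 to 4089 CPM in myoblasts, mostly Acta2, and to 7281 to 7916 CPM against 6996 to 7233 CPM in myotubes. The part of such cells in the interaction was not tested.

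**Figure D5:**
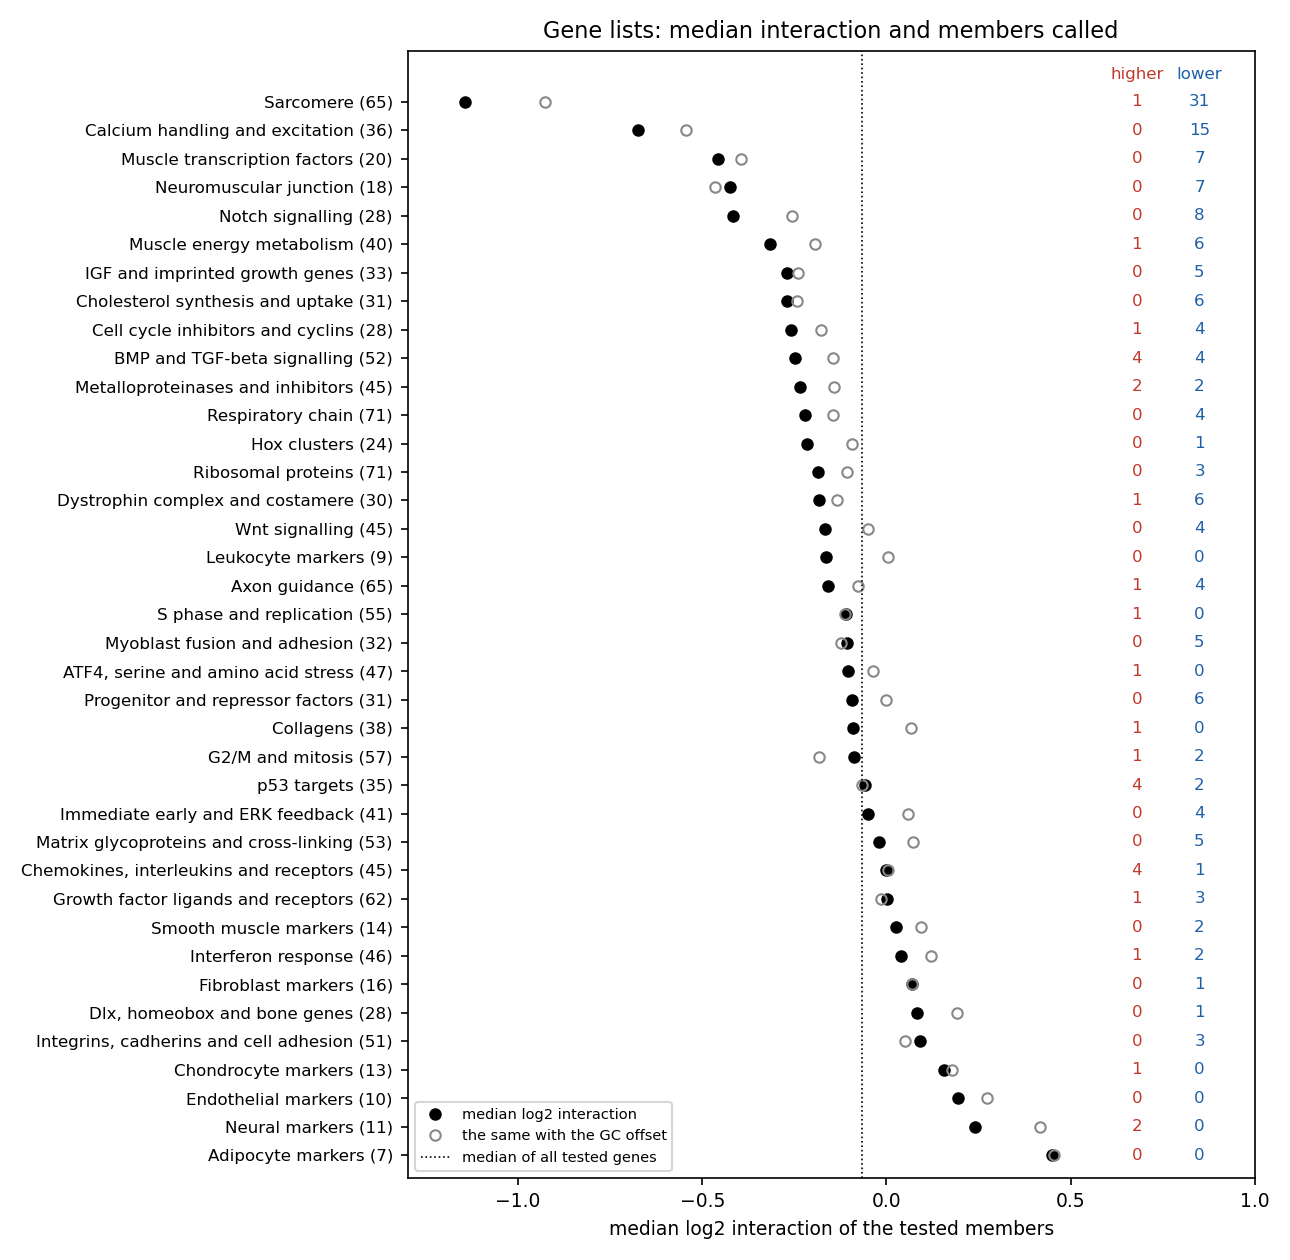
Filled points are the median log2 interaction of the tested members of each of 38 gene lists (number tested in brackets), open points the same with the GC correction, and the dotted line the median of all genes, -0.07. The numbers on the right count the members with a higher (red) and a lower (blue) interaction, and the sarcomere list, with 31 lower and a median of -1.14, lies farthest to the left.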

How the data were processed

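Per the labels, a stranded mRNA kit was used. The authors deposited counts, raw whole numbers per gene and library. Per the submitters' processing notes, which give no roles, the build was mm9 and the tools were edgeR 3.6.8, SAMtools 0.1.19 and TopHat2 2.0.11. How reads were counted, on which annotation and with which strand setting, is not given in the sources. Entries with no symbol (0.0601 to 0.0878% of counts) were left out. GFP reads were not analysed here.

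All 16 libraries entered a single model in edgeR 4.0.16 (R 4.3.3, limma 3.58.1), 1 coefficient per group, with filterByExpr at a minimum count of 10, TMM scaling and robust two-sided quasi-likelihood F-tests. Values of p were adjusted by Benjamini-Hochberg over 16245 genes. Interactions are edgeR's shrunken log2 values, and standard errors are the unshrunken log2 value divided by the square root of F. CPM are read counts divided by library size after TMM adjustment and rescaled. The fit was tested on simulated counts.

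Named genes were Msx2, all muscle transcription factors, the 14 largest interactions each way (mean of at least 2 CPM in 1 group, no overlap of the lines in 1 stage, no predicted genes), up to 3 genes each way per list by adjusted p, and up to 3 each way per class of movement. Marker genes were named besides. Members and the 38 lists were chosen with earlier results of these data known, and some genes of the lists and of these rules are not reported here.

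The alternatives tried were upper-quartile and RLE scaling, no filter, a filter of 5 CPM in 2 libraries, only the 10 libraries, DESeq2 1.42.0, a replicate block, leaving out each library, summing the 2 GFP-line myoblast libraries (whose counts differed little beyond sampling noise, with a chi-square of 1.95 per degree of freedom against 12.8 to 31.3 in other pairs), and offsets for GC content or transcript length of the longest transcript in a reference of another build, used for no coordinates. Of the 19799 symbols 18657 matched that reference directly and 982 by an older symbol. Same-numbered msx2-line and GFP-line myotubes deviated together (r of 0.18, 0.27 and 0.29), so the numbers were taken to pair them. The labels do not state this pairing, and libraries with different numbers were not compared. Total counts of the myotube libraries rose with the number in both lines. They were 19830622, 27113195 and 30867084 in the msx2 line and 19784873, 26483909 and 33092666 in the GFP line. The part of depth in these correlations was not tested. Pairs with myoblasts had r of -0.01 to 0.07.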

Additional observations from a re-analysis of the deposited data

Results flagged for a closer look

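The change with differentiation differed between the msx2 line and the GFP line for 1345 genes by the interaction test, with 651 higher and 694 lower. Of these, 92 passed in opposite directions in the 2 lines (6.84%, beside 0.591% of all genes). No group had enough libraries for a search for single libraries that stand apart.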

How the results depend on the processing

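With 2 libraries in each myoblast group, the size of the interaction rests on few samples. The interaction count of 1345 became 608 with the GFP-line myoblast libraries summed, 527 with the GC offset and 439 to 1642 when single libraries were left out, and it was 1885 with DESeq2. With only the 10 uninduced libraries 726 were higher and 384 lower, and with the filter of 5 CPM 832 and 584. The lines in myoblasts differed in 1025 genes with the libraries summed, 1024 with the GC offset and 764 to 2961 when single libraries were left out. In myotubes they differed in 20 with no filter, 154 with DESeq2, 5 with the libraries summed, 19 with the GC offset and 2 to 21 when single libraries were left out. Differentiation gave 11880 to 12968 genes in the msx2 line and 11345 to 12681 in the GFP line when single libraries were left out, and 10258 to 13313 and 10114 to 12904 over all alternatives.

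The replicate number as a block gave 2264 genes for the interaction and 173 for the lines in myotubes. With the GC offset and the block together, the counts were 1167 for the interaction, 1763 for the lines in myoblasts and 251 in myotubes. The myoblast numbers share only a number. None of the named genes that passed changed direction in any alternative run, while 4 that did not pass took both signs, Msx2 (-0.07 to 0.24), Myf6 (-0.75 to 0.15), Eya2 (-0.10 to 0.16) and Eya4 (-0.40 to 0.01). Over the 151 named genes and the alternatives, 2595 values stayed on their side of the threshold, 548 no longer passed and 3 newly passed. The causes were not tested. The offsets for GC content and transcript length, and the GC offset with the block, were chosen after seeing the data.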

Other observations

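Several signalling and matrix lists outside muscle were counted too, beside 4.01% of all genes higher and 4.27% lower. Of 41 immediate early and ERK feedback genes 4 had a lower interaction (9.76%) and none a higher one. With the GC correction 2 were lower, and 1 or 2 were without any 1 of the 4 myoblast libraries, msx2-line myotube replicate 3 or GFP-line myotube replicate 1 or 2. Spry1, which damps growth factor signalling, was at 3.74 and 3.41 CPM in msx2-line and 1.31 and 1.6 CPM in GFP-line myoblasts and at 40.4, 36.9 and 34.1 CPM and 47.4, 55.1 and 40.6 CPM in myotubes (interaction -1.66 ± 0.25 (SE), adjusted p = 0.000776). Fos, an AP-1 subunit, was at 19 and 18.7 CPM and 7.7 and 9.76 CPM in myoblasts and between 5.24 and 6.88 CPM in all myotubes (interaction -1.18 ± 0.32 (SE), adjusted p = 0.0345), and lost its call with the GC correction. Of 45 Wnt genes 4 were lower (8.89%), and 1 with the GC correction, without msx2-line myoblast replicate 1 or without GFP-line myoblast replicate 2. Lrp5, a Wnt co-receptor, fell from 105 and 99.4 CPM in the msx2 line and 67.7 and 73 CPM in the GFP line to 23.5 to 32.4 CPM (interaction -0.73 ± 0.12 (SE), adjusted p = 0.00226).

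Of 53 matrix glycoprotein and cross-linking genes 5 were lower (9.43%), and 3 with the GC correction, without msx2-line myoblast replicate 1 or without GFP-line myoblast replicate 2. Loxl1, an elastin cross-linking enzyme, was at 178 and 156 CPM in msx2-line and 102 and 98.9 CPM in GFP-line myoblasts and at 75.1 to 87.3 CPM in myotubes (interaction -0.70 ± 0.11 (SE), adjusted p = 0.00119). Of 45 genes of chemokines, interleukins and their receptors 4 were higher and 1 lower (11.1% in all). A single higher one was called with the GC correction or without GFP-line myoblast replicate 1, and none was called without msx2-line myoblast replicate 1 or GFP-line myoblast replicate 2. Without msx2-line myoblast replicate 2, msx2-line myotube replicate 3 or GFP-line myotube replicate 2, 2 or 3 were called. Ptgs2, the inducible prostaglandin synthase, was at 675 and 711 CPM in GFP-line and 424 and 399 CPM in msx2-line myoblasts and at 159 to 231 CPM in myotubes (interaction 0.89 ± 0.22 (SE), adjusted p = 0.0218), and lost its call with the GC correction. Ifi204, an interferon-induced gene with close relatives, was at 48.4 and 54.7 CPM and 32.4 and 29.3 CPM in GFP-line and msx2-line myoblasts (interaction 0.93 ± 0.16 (SE), adjusted p = 0.00185). Of 65 axon guidance genes 4 were lower and 1, the netrin receptor Unc5c, higher (7.69% in all). These were 3 and 1 with the GC correction, and without msx2-line myoblast replicate 1, either GFP-line myoblast library or GFP-line myotube replicate 1, 2 and 1 were. Unc5c was at 29.4 and 31.3 CPM and 16 and 16.5 CPM in GFP-line and msx2-line myoblasts and at 11.7 to 14.6 CPM in myotubes (interaction 0.97 ± 0.17 (SE), adjusted p = 0.00229).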
